A study of Homo sapiens with 12 samples.

Results

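PAX3, PAX7, FOXD3, SNAI2 and ETS1 are transcription factors of the neural plate border and of the early neural crest. They were followed on 12 Illumina HT-12 bead arrays of cells differentiated from the human embryonic stem cell line H9. The array annotation gives these 5 symbols to 11 of the 47322 probes: 4 for PAX3, 2 each for PAX7, SNAI2 and ETS1, and 1 for FOXD3. All 11 are described here, whatever their values. Of the 11 probes, 10 passed the detection filter, and each of the 5 genes had a probe among the 11280 genes tested.

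The 4 groups held 3 arrays each, labelled as biological replicates. NPC-NC cells were induced without feeder cells and sorted by FACS at day 18 for the surface markers HNK1 and p75. MS5-NC cells were induced on MS5, a mouse stromal line used as a feeder, and sorted for the same markers at day 35. The sox10-NC cells were wnt-induced, came from an H9 line carrying a sox10::GFP reporter, and were sorted for GFP at day 11. LSB cells were neuroepithelial cells at day 11 and were not sorted. The design text names sox10-NC and LSB as controls. Induction, day, sort and, for sox10-NC, the cell line differed between groups. The day was the same for sox10-NC and LSB, and the sort for NPC-NC and MS5-NC. In every comparison the remaining ones changed together, so their parts cannot be told apart. Nothing in the labels says that replicates came from separate cultures, so p-values measure the spread between these arrays.

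The neural plate border is the strip of ectoderm between the neural plate and the future epidermis, where BMP, WNT and FGF signals overlap. Border factors such as PAX3 and PAX7 are switched on there first, and crest specifiers such as FOXD3, SNAI2 and ETS1 follow in the cells that become neural crest. These cells later leave the neural tube, migrate, and give rise to peripheral neurons, glia, pigment cells and facial skeleton.

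PAX3, FOXD3, SNAI2 and ETS1 were higher in sox10-NC than in LSB, and lower in NPC-NC and in MS5-NC than in sox10-NC. None of the 5 genes differed between NPC-NC and LSB by the call rule, and none between NPC-NC and MS5-NC. The detected PAX7 probe was instead lowest in MS5-NC. A gene was called when limma's test gave a Benjamini-Hochberg adjusted p under 0.05 over all tested genes with a change of 2-fold or more, and when the group with the higher mean had it detected on 2 or 3 arrays; a probe was detected on an array at a detection p-value under 0.01. FOXD3 passed the filter through sox10-NC alone, and PAX3 through sox10-NC and 1 MS5-NC array, so that both had to differ there and their calls lend no support to the pattern.

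**Figure D1:**
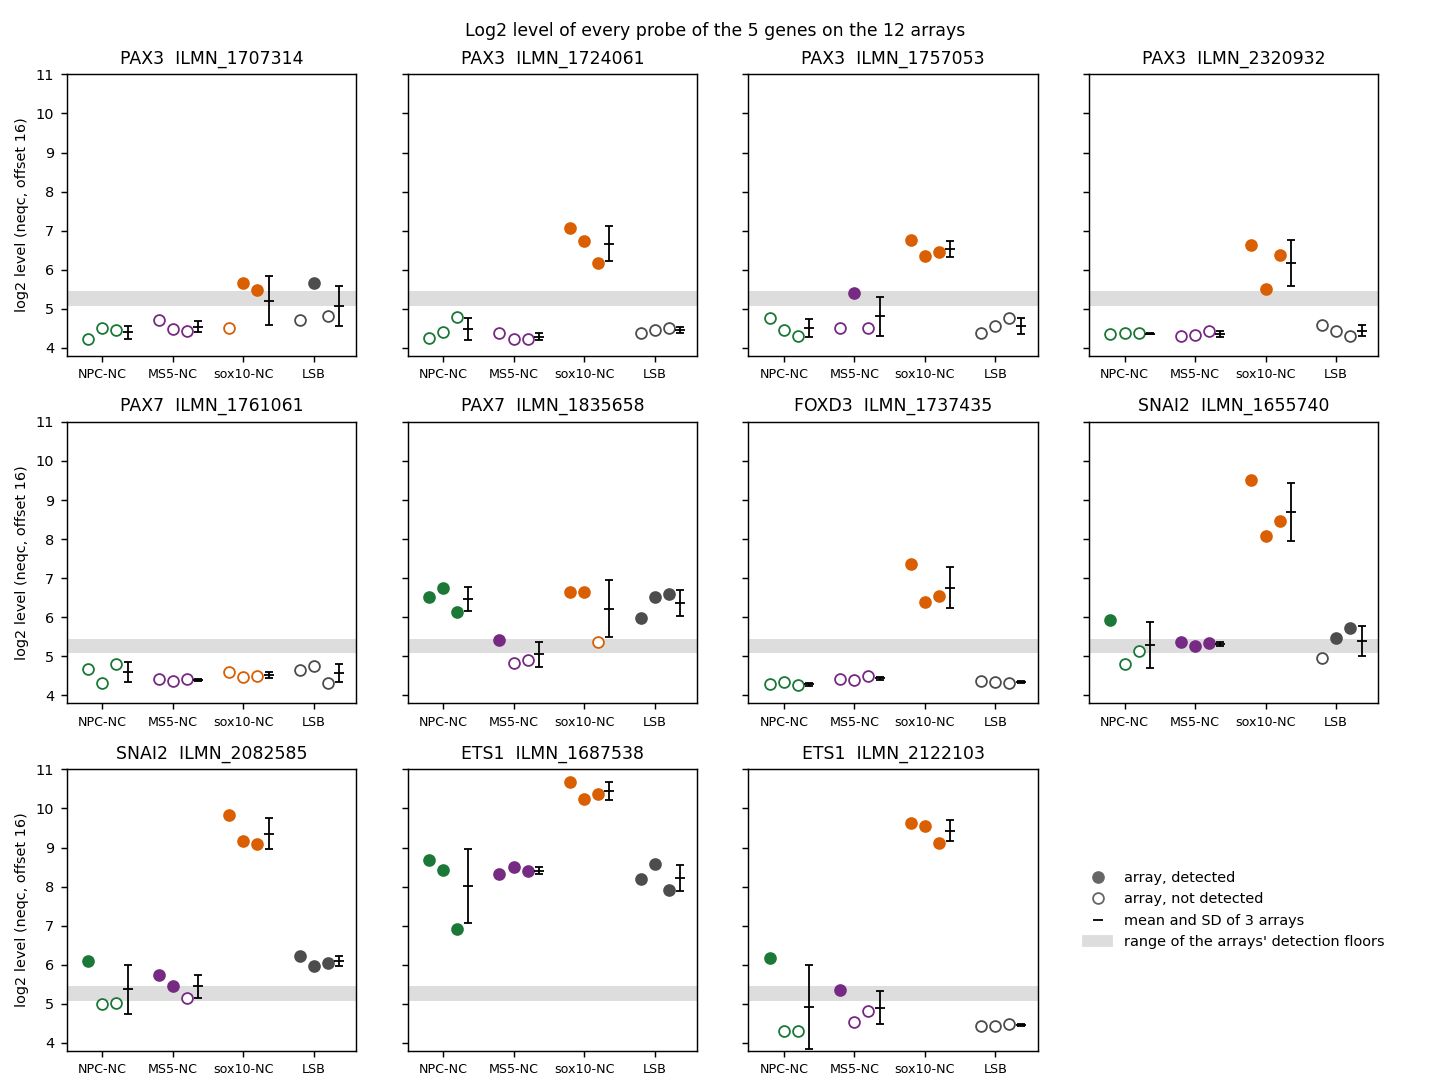
Log2 level (vertical axis, background-corrected and quantile-normalised signal) of each of the 11 probes on the 12 arrays, by group (horizontal axis). Filled points are detected, open points are not, the bar is the mean with the SD of 3 arrays, and the grey band is the range of the arrays' detection floors. SNAI2, FOXD3 and both ETS1 probes were above every other array in all 3 sox10-NC arrays, while PAX7 ILMN_1835658 was lowest in MS5-NC.

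The sequence just before the transcription start was available in RefSeq (GRCh38.p14) for 3 of the 5 genes, PAX3, FOXD3 and PAX7. It is shown because these genes differ in where they were detected: FOXD3 and most PAX3 probes in sox10-NC, and the PAX7 probe also in NPC-NC and LSB. Each sequence is the 250 bases before the start, 5′ to 3′ on the gene's own strand. PAX3 lies on the minus strand at chr2:222298999-222299248, FOXD3 on the plus strand at chr1:63322317-63322566, and PAX7 on the plus strand at chr1:18630596-18630845. Capitals mark CCAAT (or ATTGG, its other strand), TGACGTCA and CACGTG.
PAX3: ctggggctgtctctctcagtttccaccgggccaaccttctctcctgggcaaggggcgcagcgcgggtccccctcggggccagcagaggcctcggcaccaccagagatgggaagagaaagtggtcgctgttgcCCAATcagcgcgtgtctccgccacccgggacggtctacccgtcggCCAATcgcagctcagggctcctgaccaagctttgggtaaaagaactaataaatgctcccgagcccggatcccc
FOXD3: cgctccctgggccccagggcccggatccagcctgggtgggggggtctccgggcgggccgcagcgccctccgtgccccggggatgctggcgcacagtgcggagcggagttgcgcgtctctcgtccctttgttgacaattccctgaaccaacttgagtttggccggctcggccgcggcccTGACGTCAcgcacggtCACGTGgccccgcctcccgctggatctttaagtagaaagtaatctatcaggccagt
PAX7: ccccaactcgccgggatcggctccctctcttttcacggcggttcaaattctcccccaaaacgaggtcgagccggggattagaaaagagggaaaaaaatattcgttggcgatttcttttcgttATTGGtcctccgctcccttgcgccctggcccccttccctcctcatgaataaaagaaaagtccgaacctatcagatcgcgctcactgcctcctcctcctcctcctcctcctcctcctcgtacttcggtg
The 3 capitalised motifs were chosen after the sequences had been read. CCAAT, the box bound by the factor NF-Y, stood at 2 places before PAX3 and at 1 before PAX7, and 32% of 35114 promoters of the same length hold it. TGACGTCA, the cyclic AMP response palindrome, and CACGTG, an E-box, each stood once before FOXD3, and 1.65% and 6.35% of the promoters hold them. Searched on both strands, 6 further motifs were not found in these 3 windows. They were CAGGTG, the E-box that SNAI2 binds, which 17.5% of the promoters hold, CCGGAAG, an ETS motif (8.52%), GCCNNNGGC, the AP-2 motif (19.8%), CTTTGA, a TCF/LEF motif (11.2%), AACAAT, a SOX motif (8.98%), and the palindrome of paired homeodomains (0.33%). A match is a run of letters and not evidence that a factor binds. GC content was 64% for PAX3, 67.6% for FOXD3 and 54.8% for PAX7, against a median of 58% over the promoters. The FOXD3 window shares 108 bases with the window of FOXD3-AS1, a gene on the opposite strand.

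PAX3 is a paired-box factor that acts at the border and later in the dorsal neural tube, and melanocyte precursors need it. Its tested probe, ILMN_1757053, read 4.77, 4.45 and 4.30 (log2 level) on NPC-NC arrays 1 to 3, 4.50, 5.39 and 4.52 on the MS5-NC arrays, 6.75, 6.35 and 6.46 on the sox10-NC arrays, and 4.37, 4.56 and 4.77 on the LSB arrays. All 3 sox10-NC arrays were above all others, and outside sox10-NC only MS5-NC array 2 was detected. PAX3 was at least 2.47-fold higher in sox10-NC than in LSB (log2 change 1.96 ± 0.26 SE, limma adjusted p = 1.46e-05), where the bound sets LSB at its arrays' detection floor, the lowest level that passes the detection threshold. It was at least 2.65-fold lower in NPC-NC than in sox10-NC (log2 change -2.01 ± 0.26 SE, limma adjusted p = 1.13e-05), and it was also called lower in MS5-NC, where 1 of 3 arrays detected it and the others were below background (log2 change -1.72 ± 0.26 SE, limma adjusted p = 5.61e-05). Without background correction these changes were under 2-fold, at 0.82, -0.86 and -0.72, and were not called.

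Of the 3 further PAX3 probes, 2 followed the tested one. ILMN_1724061 read 4.26, 4.41 and 4.80 on the NPC-NC arrays, 4.38, 4.24 and 4.23 on the MS5-NC arrays, 7.07, 6.75 and 6.18 on the sox10-NC arrays and 4.39, 4.46 and 4.52 on the LSB arrays, and was detected on the sox10-NC arrays alone. ILMN_2320932 was likewise detected only there, at 6.65, 5.51 and 6.37, while the other 9 arrays lay between 4.30 and 4.59. Both were called higher in sox10-NC than in LSB, by at least 2.74-fold and at least 1.95-fold (limma adjusted p = 1.38e-06 and 4.82e-05 over the detected probes, of which 17.8% were called in that comparison). These 2 probes passed the filter through sox10-NC alone and had to be higher there, so their calls lend no support to those of the tested probe. The last probe, ILMN_1707314, did not follow: it read 4.22, 4.52 and 4.46 on the NPC-NC arrays, 4.70, 4.49 and 4.43 on the MS5-NC arrays, 4.50, 5.65 and 5.47 on the sox10-NC arrays, and 4.72, 5.67 and 4.82 on the LSB arrays. The sox10-NC and LSB groups overlapped (log2 change 0.14 ± 0.30 SE, limma adjusted p = 0.759). It is annotated to the same transcript record as the tested probe.

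PAX7, the closest relative of PAX3, marks the border and the dorsal neural tube and later muscle stem cells. The probe annotated to a RefSeq transcript of PAX7, ILMN_1761061, was detected on 0 of 12 arrays, with levels of 4.32 to 4.82. The other, ILMN_1835658, was detected on 9 of 12 arrays, but the mRNA record that it was designed on is not among the RefSeq transcripts of PAX7, so its values rest on the array annotation's symbol. It read 6.51, 6.75 and 6.13 on the NPC-NC arrays, 5.42, 4.84 and 4.90 on the MS5-NC arrays, 6.64, 6.64 and 5.37 on the sox10-NC arrays, and 5.97, 6.51 and 6.59 on the LSB arrays. MS5-NC lay below NPC-NC and below LSB without overlap, while sox10-NC array 3, which was not detected, fell below MS5-NC array 1. Only 1 of 3 MS5-NC arrays detected the probe, so its folds there rest in part on levels below background. Against LSB the probe was 2.47-fold lower in MS5-NC (log2 change -1.30 ± 0.32 SE, limma adjusted p = 0.00352). Against sox10-NC it was 2.24-fold lower in MS5-NC (log2 change -1.16 ± 0.32 SE, limma adjusted p = 0.00928), with groups that overlapped. Without sox10-NC array 1 or array 2 that log2 change was -0.96 each, under the 2-fold rule. Both PAX7 calls were lost without background correction and with a larger offset, where the changes were under 2-fold. Between NPC-NC and MS5-NC the log2 change was 1.41 ± 0.32 SE and missed the threshold (limma adjusted p = 0.159), in a comparison where 0.0798% of genes were called and the groups of 13.9% of genes did not overlap. NPC-NC, LSB and sox10-NC, in falling order of the mean, were not shown to differ for this probe: the log2 change was 0.11 ± 0.32 SE between NPC-NC and LSB and 0.25 ± 0.32 SE between NPC-NC and sox10-NC.

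FOXD3 is a forkhead factor of premigratory crest that also acts in pluripotent cells. Its only probe, ILMN_1737435, read 4.28, 4.33 and 4.25 on the NPC-NC arrays, 4.41, 4.40 and 4.49 on the MS5-NC arrays, 7.36, 6.38 and 6.54 on the sox10-NC arrays, and 4.37, 4.35 and 4.31 on the LSB arrays. It was detected on the 3 sox10-NC arrays and on none of the other 9. FOXD3 was at least 2.92-fold higher in sox10-NC than in LSB (log2 change 2.42 ± 0.24 SE, limma adjusted p = 4.68e-07), and lower by at least 3.13-fold in NPC-NC and at least 3.01-fold in MS5-NC than in sox10-NC (limma adjusted p = 3.47e-07 and 7.08e-07). DPPA4, ZFP42 and LIN28A were the 3 of 5 pluripotency markers detected in sox10-NC and in LSB, with summed linear levels of 4000.4 to 4454 and of 4746 to 5079, and 0 of the 3 were called between these groups by limma, nor had any an unadjusted p under 0.05, while FOXD3 was not detected in LSB. Against sox10-NC, ZFP42 and LIN28A were called lower, as FOXD3 was, both in NPC-NC (the list's median log2 change was -3.56, or -3.27 with bounds) and in MS5-NC (-3.01), and DPPA4 was not called. The part of these markers in the FOXD3 values was not tested.

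SNAI2 is a zinc-finger repressor of epithelial genes that acts as crest cells leave the neural tube. Its tested probe, ILMN_2082585, read 6.10, 4.99 and 5.02 on the NPC-NC arrays, 5.74, 5.46 and 5.15 on the MS5-NC arrays, 9.82, 9.16 and 9.10 on the sox10-NC arrays, and 6.23, 5.98 and 6.05 on the LSB arrays. Detection was complete in sox10-NC and LSB, and it failed on 2 NPC-NC arrays and 1 MS5-NC array. SNAI2 was 9.67-fold higher in sox10-NC than in LSB (log2 change 3.27 ± 0.29 SE, limma adjusted p = 1.34e-07). It was 15.9-fold lower in NPC-NC than in sox10-NC (log2 change -3.99 ± 0.29 SE, limma adjusted p = 9.52e-09), and 15.0-fold lower in MS5-NC (log2 change -3.91 ± 0.29 SE, limma adjusted p = 9.86e-09). The second probe, ILMN_1655740, read 5.93, 4.80 and 5.14 on the NPC-NC arrays, 5.36, 5.26 and 5.33 on the MS5-NC arrays, 9.52, 8.09 and 8.47 on the sox10-NC arrays, and 4.96, 5.48 and 5.71 on the LSB arrays. It gave log2 changes of 3.31 ± 0.34, -3.40 ± 0.34 and -3.38 ± 0.34 (SE) in these comparisons, all called, where 17.8%, 13.4% and 16.4% of detected probes were. For this probe too the sox10-NC arrays were above all others, and the remaining groups overlapped. Below sox10-NC the order of the means was LSB, MS5-NC and NPC-NC, and these neighbours were not shown to differ: the log2 change was -0.71 ± 0.29 SE between NPC-NC and LSB (limma adjusted p = 0.0758) and -0.64 ± 0.29 SE between MS5-NC and LSB (limma adjusted p = 0.0968). Without NPC-NC array 1 the log2 change between NPC-NC and LSB was -1.08 and was called (limma adjusted p = 0.00781; the adjusted p ran between 0.00781 and 0.327 over the alternatives).

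ETS1 is an ETS-family factor of cranial crest that also acts in endothelium and lymphocytes. It was the one gene of the 5 with a probe detected on all 12 arrays. That probe, ILMN_1687538, read 8.69, 8.42 and 6.92 on the NPC-NC arrays, 8.32, 8.50 and 8.39 on the MS5-NC arrays, 10.69, 10.25 and 10.38 on the sox10-NC arrays, and 8.19, 8.58 and 7.93 on the LSB arrays. The sox10-NC arrays were above all others, and NPC-NC array 3 was the lowest of the 12. ETS1 was 4.62-fold higher in sox10-NC than in LSB (log2 change 2.21 ± 0.34 SE, limma adjusted p = 7.93e-05), 5.38-fold lower in NPC-NC than in sox10-NC (limma adjusted p = 3.33e-05) and 4.10-fold lower in MS5-NC (limma adjusted p = 0.000176). The means of MS5-NC, LSB and NPC-NC, in falling order, were not shown to differ, with a log2 change of -0.22 ± 0.34 SE between NPC-NC and LSB and 0.17 ± 0.34 SE between MS5-NC and LSB.

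The second ETS1 probe, ILMN_2122103, was detected on 5 of 12 arrays. It read 6.16, 4.31 and 4.30 on the NPC-NC arrays, 5.36, 4.52 and 4.81 on the MS5-NC arrays, 9.62, 9.54 and 9.12 on the sox10-NC arrays, and 4.44, 4.44 and 4.50 on the LSB arrays. Only NPC-NC array 1 and MS5-NC array 1 were detected outside sox10-NC. By this probe ETS1 was at least 18.6-fold higher in sox10-NC than in LSB (limma adjusted p = 8.99e-09), a bound above the 4.62-fold of the tested probe. The probes are annotated to one transcript record, and the size of the ETS1 change differed with the probe. Without the sox10-NC arrays ILMN_2122103 would not have passed the filter. It had to be higher there, so its direction and call lend no support to those of the tested probe.

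**Figure D2:**
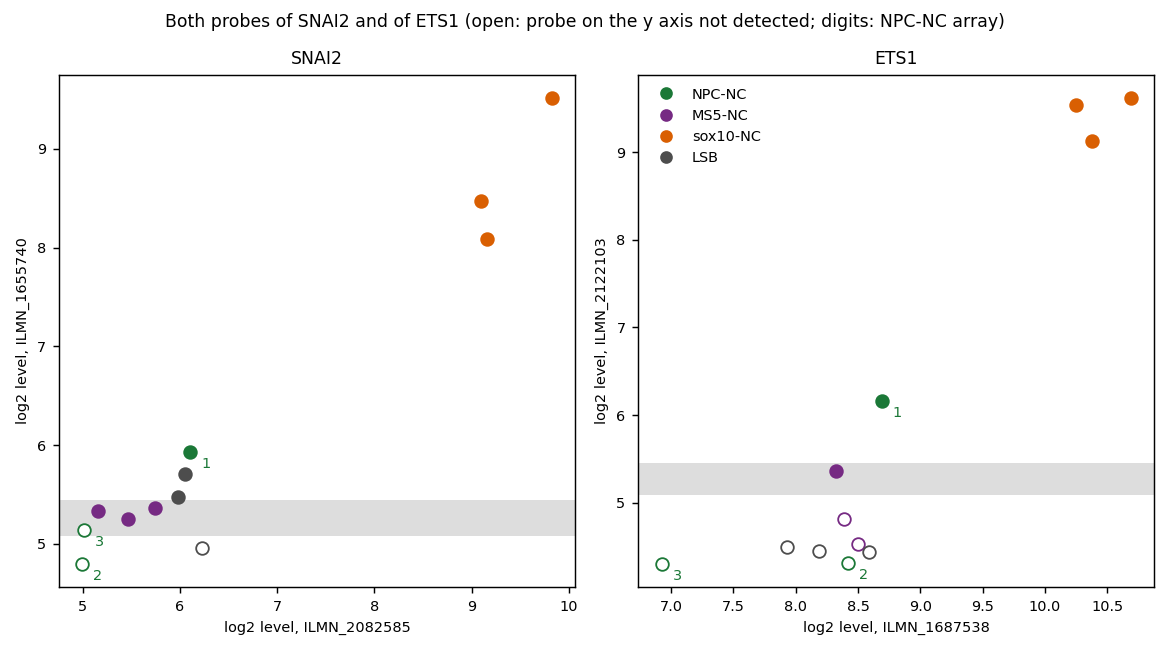
Log2 levels of both probes of SNAI2 (left) and of ETS1 (right), one point per array, with NPC-NC arrays numbered the y axis probe's undetected arrays open, and the range of the arrays' detection floors as a grey band. On both panels the 3 sox10-NC arrays stand apart at the upper right; NPC-NC array 1, at 6.10 and 5.93 for SNAI2 and at 8.69 and 6.16 for ETS1, is the highest NPC-NC array.

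NPC-NC array 1 was the highest of its group for both SNAI2 and both ETS1 probes. The same array was the highest of its group for TFAP2A at 6.17 (5.29 on the next), ERBB3 at 6.12 (5.29) and EYA1 at 6.75 (4.74). This was not limited to crest genes: it was also the highest for the neuroepithelial markers PAX6 at 9.38 (8.17) and SOX2 at 11.47 (10.90). It was the lowest of its group for the border gene DLX5 at 7.30 (9.54 on the next) and the neuroepithelial marker LHX2 at 11.16 (11.95). SOX10, at 5.01 there, was not detected on it. The part of this array in the NPC-NC values was not tested beyond leaving it out.

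Set against all genes, the calls were as follows. Between sox10-NC and LSB 4 of the 5 genes were called higher and none lower, where 18.4% of the 11280 genes were called, 9.77% higher and 8.64% lower. Between NPC-NC and sox10-NC 4 were called lower, where 14% of genes were called and 4.73% lower, and between MS5-NC and sox10-NC all 5, where 17.3% were called and 6.57% lower. Each of these counts includes FOXD3 and PAX3. FOXD3 passed the filter through sox10-NC alone, and PAX3 through sox10-NC and 1 MS5-NC array. Both had to differ there, so the counts lend no support to the pattern. Between MS5-NC and LSB 1 gene, PAX7, was called lower, where 20.9% were called and 7.85% lower, and between NPC-NC and LSB 0, where 15% were called. Groups did not overlap for 45.9% of genes between sox10-NC and LSB, 34.4% between NPC-NC and sox10-NC, 40.2% between MS5-NC and sox10-NC, 45.7% between NPC-NC and LSB and 52.6% between MS5-NC and LSB. In limma's fit 1 of the 5 had an unadjusted p under 0.05 between NPC-NC and LSB, SNAI2, and 1 between NPC-NC and MS5-NC, PAX7. Between MS5-NC and LSB 2 had, PAX7 and SNAI2, and the groups did not overlap for the tested probe of either. Comparisons with sox10-NC share its 3 arrays, as those with LSB share theirs, so they are not independent of each other. Because these are bulk samples, fewer cells making a transcript and less transcript per cell cannot be told apart.

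**Figure D3:**
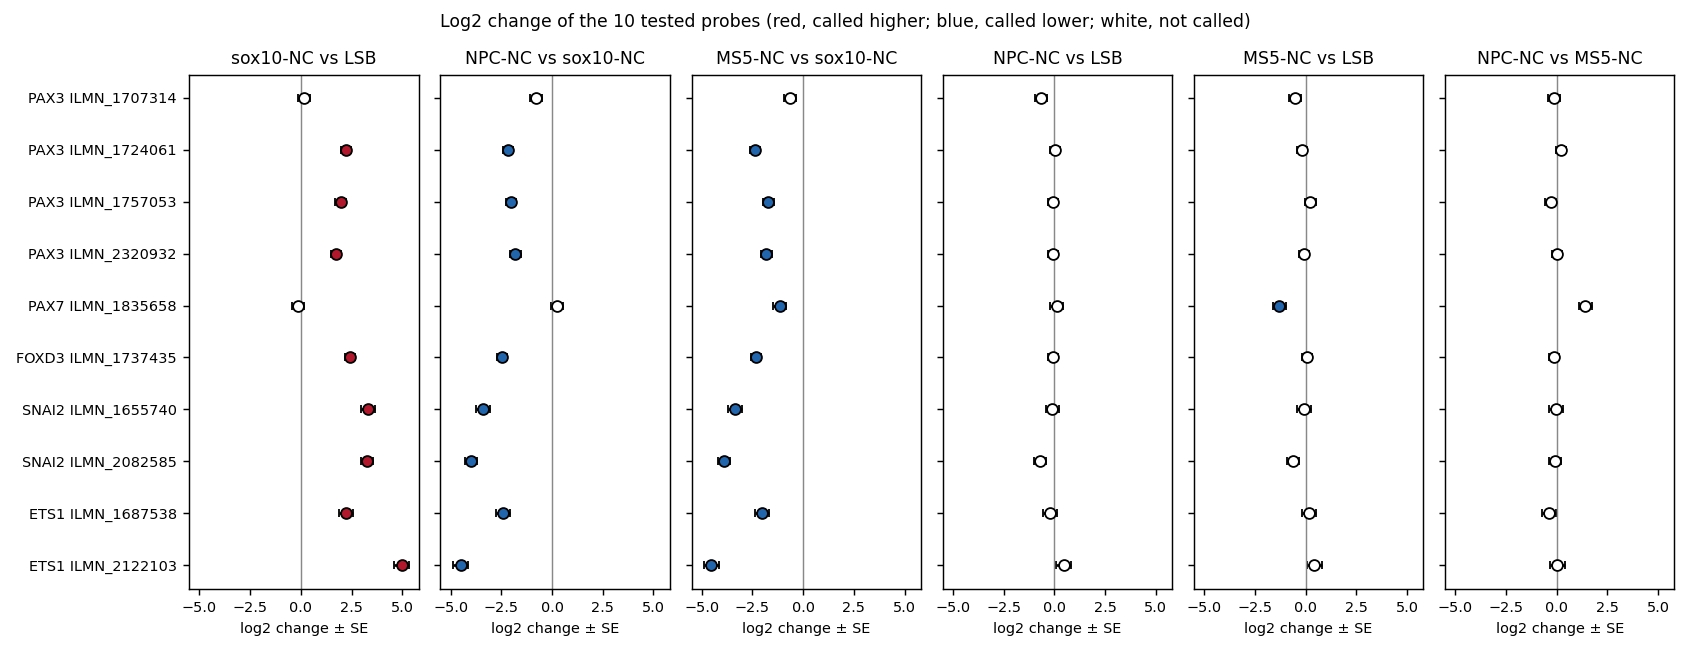
Log2 change (horizontal axis, first-named group minus second, with its SE) of the 10 tested probes in the 6 comparisons; red is called higher, blue called lower and white not called. The changes were large in the 3 comparisons with sox10-NC for FOXD3, SNAI2, ETS1 and the PAX3 probes other than ILMN_1707314, with ETS1 ILMN_2122103 at 4.97 in sox10-NC against LSB, and PAX7 was called lower in MS5-NC against LSB. FOXD3, these PAX3 probes and ETS1 ILMN_2122103 passed the filter only with the sox10-NC arrays, so their changes lend no support.

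The signals and factors around the 5 genes were read from further lists. Of 12 border-inducing ligands, 7 were tested. BMP5, a bone morphogenetic protein, was 7.87-fold higher in sox10-NC than in LSB, and FGF8, a border-inducing growth factor, at least 11.8-fold lower, and the other 5 were not called. The median log2 change of the list was -0.70 (0.15 with genes below background at their bounds), against -0.02 for all genes, so its sign depends on the bounds. In NPC-NC and in MS5-NC against sox10-NC, BMP5 was called lower (log2 change -3.27 and -3.34), with 1 of 3 arrays detected in each of these groups, while DLL1, a Notch ligand, was 2.91-fold and 2.61-fold higher. FGF8 was also called higher in NPC-NC (mean log2 level 6.69 against 4.51), and WNT8B, a WNT ligand, in MS5-NC (5.39 against 4.36). Each was detected on 2 of 3 arrays of that group and on 0 sox10-NC arrays.

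Border factors other than PAX3 and PAX7 moved in both directions. Of 10 listed, 9 had a probe and 6 were tested. Between sox10-NC and LSB, TFAP2A, an AP-2 factor of border and crest, rose 16.5-fold and MSX1, a BMP-responsive homeobox gene, 6.90-fold. DLX5, DLX3 and ZIC1, homeobox and zinc-finger genes of the border and neural plate, fell: DLX5, detected on 1 of 3 sox10-NC arrays, by 4.18-fold, DLX3 by at least 1.46-fold and ZIC1 by at least 1.31-fold. The list's median log2 change was -0.11 (0.20 with genes below background at their bounds), against -0.02 for all genes, so its sign too depends on the bounds. Against sox10-NC, TFAP2A was 18.7-fold lower in NPC-NC and 20.7-fold lower in MS5-NC, and DLX5 was 9.44-fold and 12.7-fold higher there. ZIC1 was also called higher in NPC-NC than in LSB, by 3.15-fold, and in MS5-NC than in LSB, by 3.54-fold.

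Among crest specifiers, 10 of 12 were tested. Between sox10-NC and LSB 4 were called higher (SOX8, SOX10, TFAP2B and ID3) and 0 lower by limma, with 0 lower at an unadjusted p under 0.05, with a median log2 change of 0.89 (0.70 with bounds), against -0.02 for all genes. SOX10 was at least 45.6-fold higher, but sox10-NC cells were sorted on a SOX10 reporter, so this is no finding. TFAP2B was at least 27.8-fold higher. Both SOX10 and TFAP2B were detected on the sox10-NC arrays alone, so they passed the filter only there and had to be higher, and the count and the median lend no support. SOX8, detected on all 12 arrays, was 5.96-fold higher. In NPC-NC against sox10-NC 5 were called lower and 1 higher: SOX9, an early specifier that is also made in neural progenitors, was 4.98-fold higher. SOX9 was also 4.36-fold higher in NPC-NC than in LSB and 4.67-fold higher in MS5-NC than in LSB.

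Of 12 genes known downstream of the 5 factors, 8 were tested. In sox10-NC against LSB, 5 were higher: CDH6, a cadherin of crest cells, by 37.6-fold, RHOB, a GTPase of crest delamination, by 11.7-fold, MITF, the pigment cell regulator, by at least 3.63-fold, and ERBB3, a neuregulin receptor of migrating crest, by 27.1-fold, with SOX10 as above. CDH1, the epithelial cadherin that SNAI2 represses, was 4.09-fold lower. The median was 3.12 (2.71 with bounds), against -0.02 for all genes. MITF, like SOX10, was detected on the sox10-NC arrays alone and had to be higher there, so this count and median lend no support either. CDH1 was also lower where SNAI2 was not called: at least 6.61-fold in NPC-NC against LSB and by a log2 change of -2.76 in MS5-NC against LSB, with 1 of 3 MS5-NC arrays detected. The part of SNAI2 in the CDH1 values was not tested.

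Relatives of the 5 genes did not share one direction. Of 18 listed, 7 were tested, and between sox10-NC and LSB FOXD2, a forkhead relative of FOXD3, was at least 10.5-fold higher, having passed the filter through sox10-NC alone, while PAX6 (also a neuroepithelial marker), ETV4 and ETV5 fell, PAX6 by at least 12.5-fold and ETV5, an ETS-family factor detected on 1 of 3 sox10-NC arrays, by 12.7-fold. ETS2, the closest relative of ETS1, was called lower in NPC-NC against sox10-NC, by 3.98-fold, and against LSB, by 2.22-fold. It was likewise called lower in MS5-NC, where 1 of 3 arrays detected it, against sox10-NC (log2 change -2.18) and against LSB (-1.34).

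**Figure D4:**
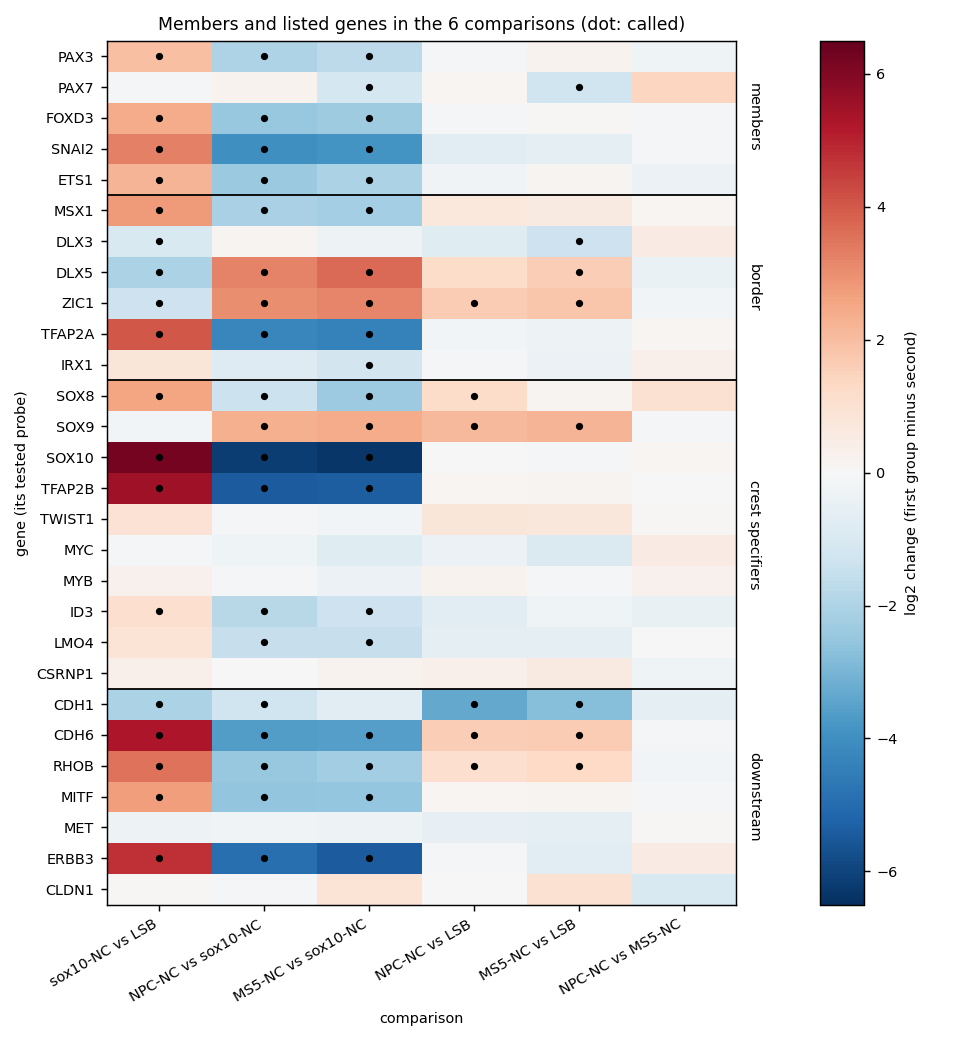
Log2 change (colour, first-named group minus second) of the 5 genes and of the tested border factors, crest specifiers and downstream genes (rows) in the 6 comparisons (columns); dots mark called genes. PAX3, FOXD3, SNAI2 and ETS1 rose in sox10-NC against LSB together with TFAP2A, TFAP2B and CDH6, while CDH1, DLX5, DLX3 and ZIC1 fell. FOXD3 and TFAP2B passed the filter through sox10-NC alone, and PAX3 through sox10-NC and 1 MS5-NC array, so their rise lends no support.

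The labelled cell types were set against marker lists. All 6 neural crest markers were detected on every sox10-NC array, while 2 to 4 were on the NPC-NC arrays, 1 to 3 on the MS5-NC arrays and 2 to 4 on the LSB arrays. Their summed linear levels, with the offset taken off, were 607 to 977 in NPC-NC, 619 to 1095 in MS5-NC, 4277 to 5638 in sox10-NC and 185 to 330.003 in LSB. SOX10 and TFAP2B were below the detection threshold on all 6 NPC-NC and MS5-NC arrays, and passed the filter through sox10-NC alone. Against sox10-NC, 5 of the 6 markers were called lower in NPC-NC and in MS5-NC, where 4.73% and 6.57% of all genes were. SOX9, which is also made in neural progenitors, was called higher in both, with mean log2 levels of 9.44 and 9.54 against 7.13. The sox10-NC cells were sorted on a SOX10 reporter, and TFAP2B had to be higher there. The 5 calls and the detections and sums of sox10-NC therefore lend no support. TFAP2A was detected on 2 of 3 NPC-NC and 2 of 3 MS5-NC arrays. The markers thus go only in part with the neural crest label of those groups. Of 8 neuroepithelial markers, 6 to 7 were detected on the NPC-NC and MS5-NC arrays, 2 on the sox10-NC arrays and 7 on the LSB arrays, and their summed levels were 7417 to 8263, 7497 to 10229, 533 to 683 and 6505 to 7057 in that order of groups. These markers moved opposite to PAX3, FOXD3, SNAI2 and ETS1 in the comparisons with sox10-NC, and their part was not tested. For ETS1, 1 to 2 of 8 endothelial markers were detected in each group, TEK always and VWF on 5 arrays, with PECAM1, CDH5 and KDR on none. The endothelial sums were 136 to 184 in NPC-NC, 100.02 to 161 in MS5-NC, 81.2 to 125 in sox10-NC and 239 to 335 in LSB. TEK, 1 of 2 endothelial markers tested, was 3.35-fold lower in sox10-NC than in LSB. The part of endothelial cells in the ETS1 values was not tested. For PAX3 and PAX7, 0 to 1 of 8 markers of paraxial mesoderm and muscle were detected on any array, with sums of 48.6 to 82.0 over the 12 arrays. The part of such cells in the PAX3 and PAX7 values was not tested.

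The genes with the most similar profile to each gene were found by Pearson correlation of log2 levels over the 12 arrays among all other tested genes. Since the arrays fall into groups, these values mostly restate the group differences and are given without a test. For PAX3 they were COL23A1, SDHAP4 and PRSS56 (r = 0.98, 0.97 and 0.96), and for FOXD3 SSUH2, MSTN and COL11A2 (r = 0.99 each). For SNAI2 they were RASL12, ERBB3 and DACT2 (r = 0.98 each), and for ETS1 SDHAP4, RAB30 and EPB41L4A-AS1 (r = 0.96, 0.95 and 0.95). For PAX7 the nearest were RNF25, ZNF644 and MNS1 (r = 0.85, 0.84 and 0.82), further from it than those of the other 4 genes. MNS1 was lowest in MS5-NC, at 7.16 ± 0.13, against 8.02 ± 0.18 in NPC-NC, 8.14 ± 0.39 in sox10-NC and 8.22 ± 0.13 in LSB (SD, n = 3 each).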

How the data were processed

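Total RNA was labelled as biotinylated cRNA and hybridised to 12 HT-12 bead arrays, per the labels; GenomeStudio appears in the submitters' processing notes. The deposited table holds, per the file headers, each probe's mean bead intensity on the linear scale, not normalised, with its detection p-value, bead number and bead standard error. The authors' series matrix holds processed intensity values whose steps are not given in the sources used here; it served as an alternative. Between 30.9% and 36.1% of 47322 probes were detected per array, with a median of 18 to 22 beads.

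Signal was background-corrected, quantile-normalised and log2-transformed with neqc (offset 16) of limma 3.58.1 in R 4.3.3. Probes detected at p under 0.01 on at least 3 arrays were kept, and the kept probe brightest on average stood for its gene. One model of 4 groups over the 12 arrays was fitted with lmFit and eBayes, two-sided, and other probes came from a fit of all 14790 detected probes with 1 gene. The fit was tested on simulated data. The 5 genes, the lists and the rule for named genes (the 5 genes, up to 3 called genes per list, direction and comparison, and the 3 most similar genes) were chosen with earlier results of these data known; further called list members are named where their counts are small. Where a group was below background, folds are lower bounds against the detection floor. The alternatives were offset 50, no background correction, other detection filters, the mean over probes, each probe on its own, the series matrix, a replicate block and leaving out each array.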

Additional observations from a re-analysis of the deposited data

How the results depend on the processing

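No called change of the 5 genes turned its sign under any alternative run, while changes that were not called did in some, for example PAX7, which ran between -0.36 and 0.28 (log2) in sox10-NC against LSB and between -0.18 and 0.46 in NPC-NC against sox10-NC, and ETS1, between -0.56 and 0.33 in NPC-NC against LSB. Over the 6 comparisons in the order sox10-NC against LSB, NPC-NC against sox10-NC, MS5-NC against sox10-NC, NPC-NC against LSB, MS5-NC against LSB and NPC-NC against MS5-NC, the genes called numbered 2077, 1583, 1955, 1696, 2358 and 9. Without background correction they numbered 836, 641, 834, 633, 988 and 3, and with an offset of 50 the first 5 were 1260, 947, 1200, 950 and 1449; both compress the changes of dim probes, by construction. Between NPC-NC and MS5-NC the count was 4 without a detection filter and ran between 3 and 33 with 1 array left out, at 33 without NPC-NC array 1 and 23 without MS5-NC array 1, and its share of higher calls moved between 0% and 60%; the cause was not tested. Of the 5 genes, 3 in place of 5 were called between MS5-NC and sox10-NC without background correction, and 3 to 5 with 1 array left out, at 3 without sox10-NC array 1 or array 2, where FOXD3 no longer passed the filter and was not tested. Between MS5-NC and LSB 0 were called without background correction and with an offset of 50, where PAX7 changed by -0.54 and -0.79 (log2; limma adjusted p = 0.0181 and 0.00841, between 0.00336 and 0.0195 over the alternatives). Between NPC-NC and LSB 0 to 1 were called with 1 array left out, the 1 being SNAI2 without NPC-NC array 1. The replicate numbers gave no pairing across all groups. Between NPC-NC and sox10-NC the correlations of same-numbered deviations were 0.18, 0.15 and -0.01, against at most 0.04, -0.04 and 0.11 for other numbers. For arrays 1 and 2 of these groups the same numbers thus went weakly together. In the other comparisons the same-numbered correlations ran between -0.09 and 0.05. With the replicate number as a block, 2084, 1582, 1956, 1703, 2359 and 6 genes were called, and no call of the 5 genes changed. Signal over background limits FOXD3 outside sox10-NC, and PAX3 in NPC-NC and LSB, to bounds.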
